A study of Rattus norvegicus with 6 samples.

Results

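The miRNAs described here are the mature products of miR-17, miR-20a, miR-20b, miR-93 and miR-106b, paralogous hairpins that lie in 3 genomic clusters. They were chosen by name alone: every rat miRNA in the deposited table whose name begins with one of these stems or with miR-106a was taken, both arms included. This gave 11 of the 693 miRNAs listed, 5 from 5p arms and 6 from 3p arms, and no miRNA was listed under the name miR-106a. The measurements are small RNA sequencing counts from lung tissue of young male Sprague Dawley rats. In the IR group (3 libraries) the vessels of the left hilum were clamped and then released, so that ischemia was followed by reperfusion. In the sham group (3 libraries) the chest was opened and blood flow was left intact, and the labels name no genetic change in either group. The sources used here do not give the reperfusion time, which lung was sampled or the animals behind each library, so p-values measure the spread between these libraries. Whole lung holds many cell types, and fewer cells of a type cannot be told apart from less RNA per cell.

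A miRNA hairpin is cut into a 5p and a 3p strand, and the strand that enters an Argonaute protein pairs with messenger RNAs mainly through its seed, bases 2 to 8. The 5p strands of these paralogs share 1 seed and are known to repress the cell cycle inhibitor Cdkn1a and members of the E2f family. The miR-17~92 cluster is induced by Myc, is abundant in proliferating and embryonic cells, and its loss in mice leaves the lungs underdeveloped. The miR-106b~25 cluster lies within the DNA replication gene Mcm7, and the cluster that runs from miR-106a to miR-363-3p lies on the X chromosome.

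The mature sequences from RefSeq (assembly GRCr8) show what joins these miRNAs and what separates them. In each the seed is in capitals, and all 11 names were matched. The 5p strands, given first because their common seed defines the family, are
miR-17-5p: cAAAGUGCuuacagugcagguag
miR-20a-5p: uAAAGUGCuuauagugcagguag
miR-20b-5p: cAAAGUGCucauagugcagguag
miR-93-5p: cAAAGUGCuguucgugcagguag
miR-106b-5p: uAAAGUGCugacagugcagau

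All 5 carry the seed AAAGUGC, and no other rat mature miRNA in the RefSeq table does. Of the 21 positions that can be compared, 15 hold the same base in all 5. With positions counted from 1 at the 5′ end and the base of miR-17-5p first, miR-20a-5p differs from miR-17-5p by C1U and C12U, and miR-20b-5p differs by U10C and C12U. miR-93-5p differs by U10G, A11U, C12U and A13C, and miR-106b-5p differs by C1U, U10G and G20A and is shorter, with 21 bases against 23. miR-20a-5p and miR-20b-5p, which come from different chromosomes, are separated only by U1C and U10C, with the base of miR-20a-5p first.

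The 3p strands, shown because they separate loci whose 5p strands are alike, are
miR-17-1-3p: aCUGCAGUgaaggcacuugugg
miR-17-2-3p: aCUGCACUgcaagcacuucuuac
miR-20a-3p: aCUGCAUUacgagcacuuaca
miR-20b-3p: aCUGCAGUgugagcacuucugg
miR-93-3p: aCUGCUGAgcuagcacuucccga
miR-106b-3p: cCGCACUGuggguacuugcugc

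Their seeds differ from that of the 5p strands, and miR-17-1-3p and miR-20b-3p have the same one, CUGCAGU. In the GRCr8 annotation miR-17~92 is a run of 6 hairpins on chromosome 15 in the order Mir17, Mir18a, Mir19a, Mir20a, Mir19b1, Mir92a1, none of them overlapping another annotated gene. Mir106b, Mir93 and Mir25 lie within Mcm7 on chromosome 12. The X chromosome cluster holds 5 hairpins in the order Mir106a, Mir20b, Mir19b2, Mir92a2, Mir363. Mir17 and Mir106a give the same 5p strand, named miR-17-5p, so its reads cannot be divided between chromosomes 15 and X. Their 3p strands differ, miR-17-1-3p coming from Mir17 and miR-17-2-3p from Mir106a.

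The libraries held 7459979, 10718899 and 10302473 reads assigned to miRNAs in sham replicates 1, 2 and 3, and 6300841, 3775663 and 11248166 in IR replicates 1, 2 and 3. IR replicate 2 was the shallowest, and 3 reads stood for a TPM of 0.267 to 0.795 across the libraries. Levels are given as CPM, read counts brought to a common library total, after TMM scaling, which adjusts each library's total for its composition, and a log2 fold change is IR minus sham. A miRNA was called when the Benjamini-Hochberg adjusted p of edgeR's quasi-likelihood test over all 418 miRNAs tested was under 0.05. Defining miRNAs of lung endothelium summed to between 88121 and 111275 CPM in sham and between 83214 and 105486 CPM in IR, and no endothelial, smooth muscle or epithelial marker was at 0 reads in all libraries.

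In the IR lungs the 3p strand of the first miR-17~92 hairpin, miR-17-1-3p, fell 2.13-fold, and it was the 1 family member called. miR-17-5p, miR-20a-5p and miR-20b-5p had mean levels below those in sham but did not pass, and the level of miR-93-5p differed least. Of the 10 members tested, 1 was called lower and 0 higher by edgeR's quasi-likelihood test, where 2.63% of all tested miRNAs were called lower and 7.89% higher. At an unadjusted p under 0.05, 5 of the 10 were lower, against 12.2% of all tested miRNAs. Every one of the 10 had a log2 fold change below 0, as had 51.2% of all tested, and the median was -0.72 against -0.01. In 5 of the 10 all IR libraries lay below all sham libraries, which held for 16.7% of all tested. The count of members called lower varied with the test. DESeq2 called 3 (5.91% of all miRNAs lower), edgeR's likelihood ratio test called 3 (5.74%), limma-trend called 2 (2.87%) and limma-voom called 0 (1.67%), and edgeR's quasi-likelihood test with no filter on low counts called 1 (1.73%). With 1 library left out the quasi-likelihood test called 1 member without sham replicate 2 (4.05% of all lower) and 0 without sham replicate 1 (2.89%), sham replicate 3 (0.952%), IR replicate 1 (0.225%), IR replicate 2 (1.15%) or IR replicate 3 (0%), with 3 to 6 members lower at an unadjusted p under 0.05. In those fits without a called member 35 to 53 of 410 to 450 tested miRNAs were lower at that p. No test was made over the members as a group, and several of them come from common primary transcripts.

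**Figure D1:**
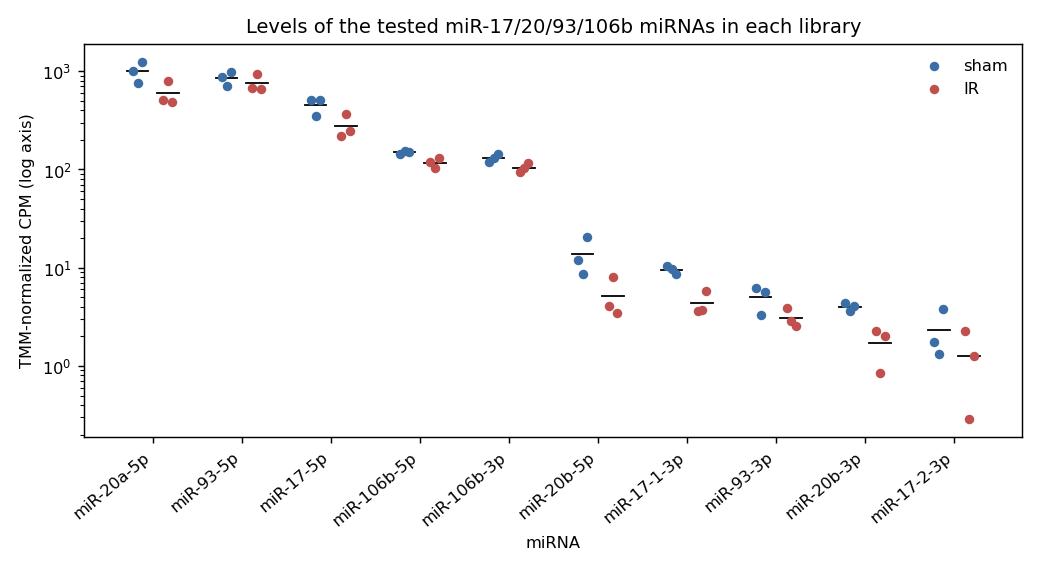
TMM-normalized CPM on a log axis of the 10 tested members in each library, with sham and IR points side by side and a black bar at each group mean. miR-20a-5p and miR-93-5p are the highest, and miR-17-1-3p drops from 9.58 to 4.38 CPM with no overlap between groups. The groups overlap for miR-17-5p, miR-17-2-3p, miR-20a-5p, miR-93-5p and miR-93-3p.

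rno-miR-17-5p, the namesake of the family, stood at 509.5, 349 and 508 CPM in sham replicates 1, 2 and 3 and at 220.2, 365 and 248 CPM in IR replicates 1, 2 and 3. IR replicates 1 and 3 lay below every sham library, whereas IR replicate 2 lay above sham replicate 2, so the groups overlapped. The mean went from 456 ± 92.1 CPM in sham to 278 ± 77.0 CPM in IR (SD, n = 3), a log2 fold change of -0.72 (SE 0.24, edgeR adjusted p = 0.0944). With DESeq2, which called 5.91% of the miRNAs with an adjusted p lower, the adjusted p was 0.0496.

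The other strands of the Mir17 and Mir106a hairpins were much scarcer. rno-miR-17-1-3p, specific to chromosome 15, was measured at 10.5, 9.66 and 8.62 CPM in the sham libraries and at 3.62, 3.71 and 5.81 CPM in the IR libraries. Every IR library lay below every sham library. The mean fell from 9.58 ± 0.919 to 4.38 ± 1.24 CPM (SD, n = 3), with a log2 fold change of -1.09 (SE 0.28, edgeR adjusted p = 0.0471). The call rests on 83, 109 and 77 reads in sham and 24, 13 and 69 in IR, and it was lost when any 1 library was left out, with adjusted p between 0.0701 and 0.134 by the same edgeR test.

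miR-17-2-3p, specific to the X chromosome, had 1.76, 1.33 and 3.81 CPM in sham and 2.26, 0.285 and 1.26 CPM in IR. The groups overlapped, with the highest value in sham replicate 3 and a single read in IR replicate 2. Its log2 fold change was -0.73 (SE 0.61, edgeR adjusted p = 0.482). Of all reads of the 3p strands of Mir17 and Mir106a, those from Mir106a made up 20.04% (exact Clopper-Pearson 95% interval 16.5% to 24.0%, counting error only). Their share was 19.0% in sham (14.9% to 23.6%) and 22.6% in IR (15.9% to 30.6%). By library it ran from 12.1% to 30.6% in sham and from 7.14% to 38.5% in IR, so the groups overlapped.

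rno-miR-20a-5p, from the fourth hairpin of miR-17~92, was the most abundant member in sham, at 993, 752 and 1245 CPM. In IR it stood at 512, 801 and 489 CPM, and again IR replicate 2 lay above sham replicate 2 while the others lay below all sham libraries. The mean was 997 ± 246.5 CPM in sham and 601 ± 174 CPM in IR (SD, n = 3), a log2 fold change of -0.73 (SE 0.25, edgeR adjusted p = 0.1004). Its other strand, miR-20a-3p, was too rare to be tested, with 7, 3 and 5 reads in sham and 1, 0 and 1 in IR. The pooled reads per total miRNA reads were 5.62 times as high in sham, with an exact 95% interval of 1.31 to 50.6 that covers counting error only.

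rno-miR-20b-5p, the X chromosome paralog of miR-20a-5p, had 11.97, 8.69 and 20.5 CPM in sham. In IR it had 4.08, 7.98 and 3.45 CPM. All IR libraries lay below all sham libraries, with IR replicate 2 just under sham replicate 2. The mean was 13.7 ± 6.10 CPM in sham and 5.17 ± 2.45 CPM in IR (SD, n = 3), and the log2 fold change of -1.48 (SE 0.44) was the most negative among the members, with an adjusted p of 0.0716 in edgeR's quasi-likelihood test. Its adjusted p went below the threshold in 6 of 15 other settings, among them edgeR's likelihood ratio test (0.0143), DESeq2 (0.0198) and the edgeR fit without sham replicate 2 (0.0433). With sham replicate 3 left out of the edgeR fit it was 0.191, and leaving out IR replicate 1 or 3 gave 0.169 or 0.206. The sham level of miR-20b-5p was highest in replicate 3, as were those of miR-17-2-3p and the cluster neighbour miR-363-3p. So were those of miR-20a-5p, miR-93-5p and miR-18a-5p, which lie on other chromosomes, but not that of miR-20b-3p.

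miR-20b-3p, the other strand of that hairpin, was measured at 4.41, 3.64 and 4.03 CPM in sham and at 2.26, 0.855 and 2.02 CPM in IR. The IR libraries lay below the sham libraries, but the lowest value comes from 3 reads. The mean was 4.03 ± 0.387 CPM in sham and 1.71 ± 0.753 CPM in IR (SD, n = 3), with a log2 fold change of -1.14 (SE 0.37, edgeR adjusted p = 0.0858).

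rno-miR-93-5p, the most abundant strand of miR-106b~25, stood at 878, 699 and 987 CPM in sham. In IR it stood at 672, 934 and 663 CPM, with IR replicate 2 above sham replicates 1 and 2. The mean was 855 ± 145 CPM in sham and 756 ± 154 CPM in IR (SD, n = 3). The log2 fold change was -0.18 (SE 0.19, edgeR adjusted p = 0.583), and 2 standard errors either side run from -0.56 to 0.21. Its 3p strand had 6.17, 3.28 and 5.71 CPM in sham and 3.92, 2.85 and 2.53 CPM in IR, overlapping groups with a log2 fold change of -0.70 (SE 0.36, edgeR adjusted p = 0.256).

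Both strands of miR-106b, from the first hairpin in Mcm7, varied little within groups. rno-miR-106b-5p was at 143, 155 and 149 CPM in sham and at 118, 103 and 129.6 CPM in IR, so the groups did not overlap. Its log2 fold change was -0.35 (SE 0.16, edgeR adjusted p = 0.220). miR-106b-3p was at 119, 131 and 143 CPM in sham and at 93.1, 102 and 117 CPM in IR, also without overlap, with a log2 fold change of -0.33 (SE 0.17, edgeR adjusted p = 0.252).

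**Figure D2:**
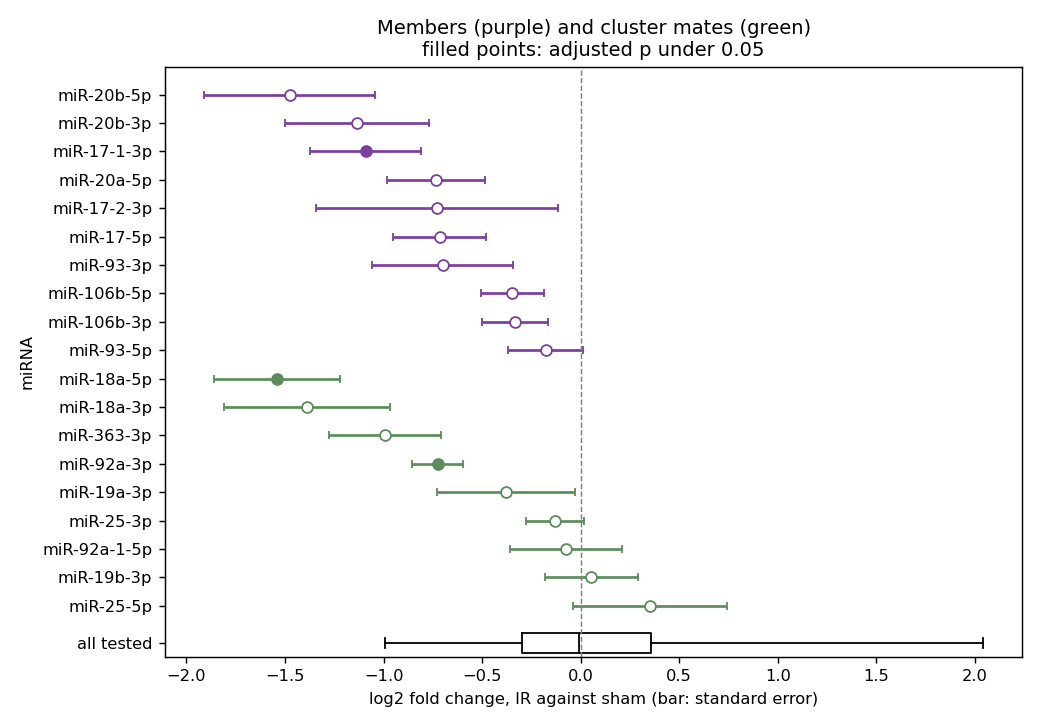
log2 fold change (IR minus sham) of each tested member (purple) and of the 9 other tested miRNAs of the 3 clusters (green). Bars are 1 SE, points are filled for an adjusted p under 0.05 in edgeR's quasi-likelihood test, and a box shows all 418 tested miRNAs. All 10 members lie below 0, from -1.48 for miR-20b-5p to -0.18 for miR-93-5p. Filled points are miR-17-1-3p among the members and miR-18a-5p and miR-92a-3p among the other cluster miRNAs.

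The order of the 5 most abundant members differed between the groups at 1 place. In all 3 sham libraries miR-20a-5p ranked above miR-93-5p, and in all 3 IR libraries miR-93-5p ranked above miR-20a-5p. In both groups the means of miR-20a-5p and miR-93-5p differed by less than the SD of miR-20a-5p. Both strands were read in the same libraries, however, so that SD does not measure the spread of their order within a library. Whether this exchange of ranks differs between groups was not tested. miR-17-5p was the third, miR-106b-5p the fourth and miR-106b-3p the fifth in all 6 libraries. These ranks compare reads of strands of nearly equal length, and ligation during library making can favour some sequences over others, so a level of 1 miRNA against another is a level in the library.

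The reads of the 5 strands with the seed AAAGUGC summed to 2536, 1964 and 2910 CPM in sham and to 1527, 2211 and 1532 CPM in IR. IR replicate 2 lay above sham replicate 2, so the groups overlapped. The mean of this sum was 2470 ± 476 CPM in sham and 1757 ± 394 CPM in IR (SD, n = 3), 0.711 of the sham level. The seed family took 0.207% to 0.270% of all miRNA reads in sham and 0.161% to 0.205% in IR. These percentages, taken without TMM scaling, did not overlap, so the overlap of the sum depends on the scaling.

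The share of each strand within that sum is given by library. No such share exists for miRNAs outside the family. In CPM, 70 of all 418 tested miRNAs had every IR library below every sham library, and 72 had every one above. miR-93-5p gave 34.6%, 35.6% and 33.9% of the seed family's reads in sham and 44.0%, 42.3% and 43.2% in IR. Its share was thus higher in every IR library than in every sham library, with means of 34.7% ± 0.842 and 43.2% ± 0.885 (SD, n = 3). miR-20a-5p gave 39.2%, 38.3% and 42.8% in sham and 33.5%, 36.2% and 31.9% in IR, with no overlap in the other direction. miR-17-5p gave 20.1%, 17.8% and 17.5% in sham and 14.4%, 16.5% and 16.2% in IR, also without overlap. miR-20b-5p contributed 0.442% to 0.705% in sham and 0.225% to 0.361% in IR. The share of miR-106b-5p overlapped, running from 5.12% to 7.89% in sham and from 4.65% to 8.46% in IR. Together, miR-17-5p and miR-20a-5p made up 58.5% ± 2.19 in sham and 49.6% ± 2.72 in IR, and miR-93-5p with miR-106b-5p made up 40.9% ± 2.30 and 50.1% ± 2.79 (SD, n = 3). The latter pair comes from 1 cluster, whereas the former may include miR-17-5p reads made on the X chromosome. Shares of 1 total cannot move independently, and no test was made on them.

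**Figure D3:**
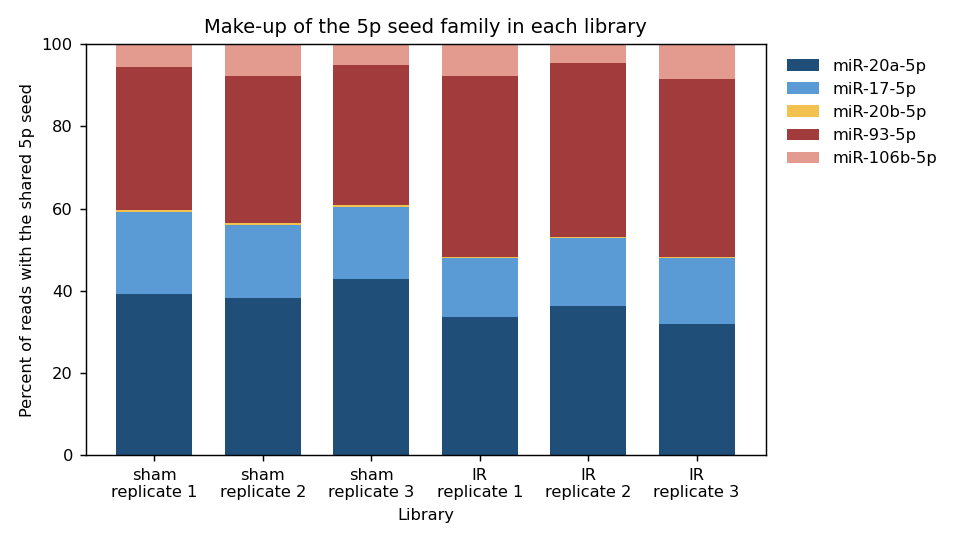
Share, in percent, of each 5p strand in the summed reads of the 5 strands with the seed AAAGUGC, in each of the 6 libraries. miR-93-5p takes 33.9% to 35.6% in the sham libraries and 42.3% to 44.0% in the IR libraries, while miR-20a-5p takes 38.3% to 42.8% and 31.9% to 36.2%.

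Ratios of reads within a library do not depend on the scaling of libraries, and 3 were compared between groups by a two-sided exact permutation test, whose smallest possible p with 3 libraries against 3 is 0.1. miR-93-5p had 1.72, 2.00 and 1.94 times the reads of miR-17-5p in sham and 3.05, 2.56 and 2.68 times in IR. The groups did not overlap, and the mean log2 ratio was higher by 0.55 in IR, a factor of 1.46 (exact permutation p = 0.1, adjusted p = 0.15 over the 3 ratios). miR-20b-5p had 1.20%, 1.16% and 1.65% of the reads of miR-20a-5p in sham and 0.796%, 0.996% and 0.707% in IR. That ratio was 1.58-fold lower in IR without overlap (exact permutation p = 0.1, adjusted p = 0.15). Neither ratio can pass the threshold in this design.

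miR-17-1-3p had 2.05%, 2.77% and 1.70% of the reads of miR-17-5p in sham and 1.64%, 1.015% and 2.35% in IR. The ratios overlapped and the mean log2 ratio differed by -0.41 (exact permutation p = 0.4, adjusted p = 0.4). This ratio could not pass the threshold in this design either. The test therefore cannot decide whether the called difference of the 3p strand differs from that of the 5p strand. The reads of miR-17-5p may also include some made from Mir106a, so the ratio need not compare the strands of 1 hairpin.

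**Figure D4:**
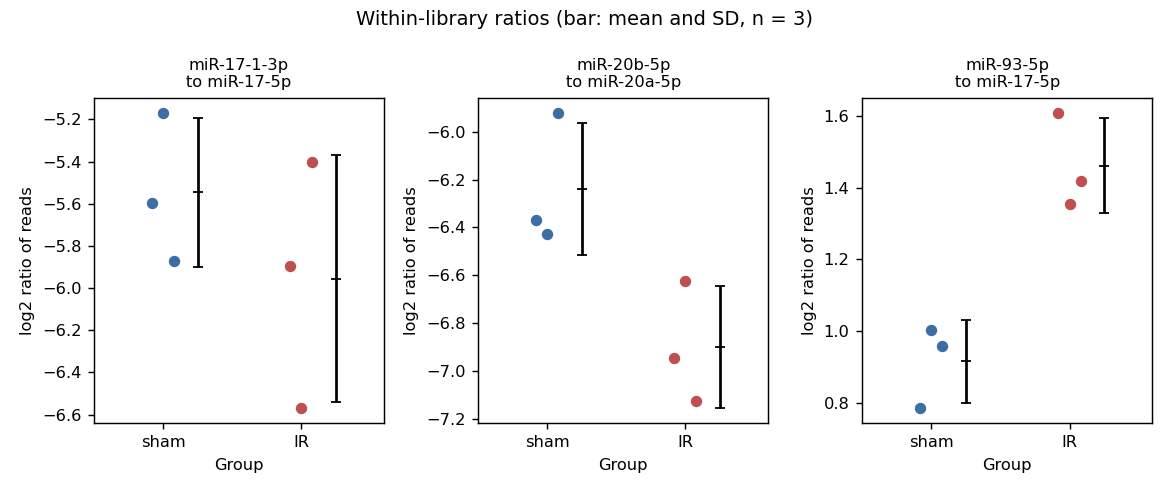
log2 ratio of reads between pairs of members in each library, sham and IR side by side with the group means. The ratio of miR-93-5p to miR-17-5p is higher in all IR libraries, that of miR-20b-5p to miR-20a-5p is lower in all of them, and that of miR-17-1-3p to miR-17-5p overlaps between groups.

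The hairpins differed widely in which strand was sequenced. miR-106b gave nearly equal reads of both strands, its 3p strand taking between 44.1% and 49.9% of the hairpin's reads in the 6 libraries and 46.8% in either group. The 3p strand of miR-93, its neighbour in Mcm7, took between 0.304% and 0.698%, and that of miR-20a no more than 0.0887% in any library. The 3p strand of miR-20b took 26.9%, 29.5% and 16.4% in sham and 35.7%, 9.68% and 36.9% in IR, values that overlap and rest on as few as 3 reads. The 3p strands of Mir17 and Mir106a together took 2.34%, 3.05% and 2.39% of the reads of both hairpins in sham and 2.60%, 1.08% and 2.78% in IR, with the lowest share in the shallowest library.

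The other miRNAs of the 3 clusters place these values among their neighbours. Of 12 listed, 9 were tested, and 2 were called lower and 0 higher by edgeR's quasi-likelihood test, where 2.63% of all tested miRNAs were called lower and 7.89% higher. Their median log2 fold change was -0.38, against -0.01 over all tested. miR-18a-5p, which lies next to Mir17, stood at 32.6, 22.1 and 42.2 CPM in sham and at 7.70, 13.7 and 12.1 CPM in IR, with all IR libraries lower (log2 fold change -1.54, SE 0.32, edgeR adjusted p = 0.0229). miR-92a-3p, made on chromosomes 15 and X and carrying another seed, had 1276, 1030 and 1212 CPM against 699, 733 and 695 CPM, again with all IR libraries lower (-0.73, SE 0.13, edgeR adjusted p = 0.0203). Both calls were lost when IR replicate 1 or IR replicate 3 was left out, and that of miR-18a-5p also when sham replicate 3 was. miR-363-3p, the last of the X chromosome cluster, had 52.5, 53.3 and 96.8 CPM against 34.4, 38.8 and 28.9 CPM. Its groups did not overlap either, but it missed the threshold (-0.99, SE 0.28, edgeR adjusted p = 0.0647). miR-18a-3p, the scarcer strand of the Mir18a hairpin, had 3.28, 2.22 and 4.93 CPM against 1.36, 0.855 and 1.52 CPM. All IR libraries were lower, the lowest value coming from 3 reads, and it too missed the threshold (-1.39, SE 0.42, edgeR adjusted p = 0.0761).

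Other neighbours differed less or lay above sham. miR-19b-3p, also made on both chromosomes, had a log2 fold change of 0.06 (edgeR adjusted p = 0.913) from overlapping levels of 643, 570.3 and 748 CPM in sham and 612, 930 and 497 CPM in IR. miR-25-3p, which lies with miR-93 and miR-106b in Mcm7, had 941, 1146 and 1215 CPM against 1034, 896 and 1090 CPM, also overlapping (-0.13, edgeR adjusted p = 0.597). miR-25-5p, the scarce other strand of that hairpin, had the highest log2 fold change among these neighbours, 0.35 (edgeR adjusted p = 0.592). Of the 9 tested, 7 had a log2 fold change below 0, against 51.2% of all tested miRNAs.

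Other miRNAs had profiles over the 6 libraries close to that of the summed seed family. Likeness was measured as the root mean square difference of log2(CPM + 1) after each profile was centred on its mean, and its median over 408 miRNAs was 0.447. The smallest difference was that of miR-16-3p (0.0713), but at its levels of 0.755 to 2.69 CPM the added 1 compresses the profile, so its place is no sign of a like profile: its log2 fold change was -1.12 against -0.49 for the summed family. Next came miR-425-5p (0.136), miR-181a-5p (0.136), miR-181b-5p (0.144) and miR-339-5p (0.164). The log2 fold changes of these 4 were -0.28, -0.54, -0.30 and -0.53 in that order, and none of the 5 was called by edgeR's quasi-likelihood test.

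Sums of marker miRNAs of other cell types are given beside these levels, since whole lung was sequenced. The 4 lymphocyte miRNAs summed to between 1693 and 1766 CPM in sham and between 972 and 1163 CPM in IR, without overlap. The 1 called lower (2.63% of all tested were) was miR-150-5p, at 1378 to 1502 CPM in sham and 694 to 935 CPM in IR. The log2 fold changes were -0.77 for miR-150-5p, -0.78 for miR-150-3p, -0.13 for miR-342-3p and -0.20 for miR-342-5p. The 4 myeloid and leukocyte miRNAs summed to 1812 to 3046 CPM in sham and 1315 to 1645 CPM in IR, also without overlap. Of these, 0 were called by edgeR's test and 2 were lower at an unadjusted p under 0.05, against 12.2% of all tested. The sums of the 5 erythroid miRNAs overlapped, between 1234 and 4048 CPM in sham and between 1493 and 2155 CPM in IR. Of the 4 tested, 0 were called by edgeR's test and 2 were lower at an unadjusted p under 0.05, against 12.2% of all tested. All 4 had a log2 fold change below 0, as had 51.2% of all tested, with a median of -0.93. The erythroid, myeloid, lymphocyte and endothelial sums were all highest in sham replicate 3. That library also had the highest miR-20a-5p, miR-20b-5p, miR-93-5p, miR-17-2-3p and miR-106b-3p. By contrast, miR-17-5p, miR-17-1-3p, miR-20b-3p and miR-93-3p were highest in sham replicate 1 and miR-106b-5p in sham replicate 2. The 9 epithelial miRNAs summed to between 13191 and 16187 CPM in sham and between 19074 and 19616 CPM in IR, without overlap. Of these, 0 were called by edgeR's test and 3 were at an unadjusted p under 0.05, as were 110 of all 418 tested. The smooth muscle sums overlapped (133739 to 163108 CPM in sham, 141102 to 161055 CPM in IR). Those of striated muscle also overlapped (42.7 to 62.5 CPM in sham, 58.9 to 74.1 CPM in IR). In striated muscle 1 of 4 tested miRNAs was called higher, against 7.89% of all tested. The part of these cell types in the levels of the seed family was not tested.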

How the data were processed

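Small RNA of rat lung was sequenced after adapter ligation and gel selection, 1 library per sample. The authors deposited whole read counts per miRNA name and, for each count, a TPM value, which is the count scaled by all miRNA reads of its library and takes no account of length. Bowtie appears in the submitters' processing notes. The genome build, the annotation, the mismatches allowed and the handling of multiply matching reads were not given in the sources used here. Near-identical strands, such as miR-20a-5p and miR-20b-5p, could therefore have exchanged some reads.

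The deposited counts were tested in R 4.3.3 with edgeR 4.0.16: filterByExpr (minimum count 10, minimum total count 15), TMM scaling and the quasi-likelihood test of IR against sham, adjusted by Benjamini-Hochberg over all tested miRNAs and called under 0.05. limma 3.58.1, DESeq2 1.42.0 and the replicate number as a block were among the alternatives. The test was checked on simulated counts. Ratios had 0.5 read added to each count and were tested by enumerating all divisions of the libraries with scipy 1.17.1 under Python 3.11.15. Figures were drawn with matplotlib 3.10.9.

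Groups came from the sample labels, which give the treatment as control or lung ischemia-reperfusion. The control libraries are called sham here after the authors' description of the surgery. Named miRNAs are all members, the other miRNAs of the 3 clusters by the values the text turns on, and the 5 nearest profiles. Cell type markers are given by sums and counts, and the lymphocyte miRNAs also by name. The members, the lists and the rules were chosen with earlier results of these data known. Sequences and cluster order came from RefSeq (GRCr8), and no coordinates are given because the authors' build is not known.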

Additional observations from a re-analysis of the deposited data

How the results depend on the processing

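In 158 of 158 fits of a tested member under the 15 alternatives and the test as reported, the IR level was below sham. These fits reuse the same 6 libraries, so they are not independent of each other and add little to the test as reported. In that test 51.2% of all tested miRNAs had a log2 fold change below 0. Which members were called depended on the test. The count of members called was 1 by edgeR's quasi-likelihood test. It was 3 with DESeq2 (miR-17-1-3p, miR-17-5p and miR-20b-5p), 3 with edgeR's likelihood ratio test (miR-17-1-3p, miR-20b-3p and miR-20b-5p) and 2 with limma-trend on log2(TPM + 1) (miR-20a-5p and miR-20b-5p). It was 0 with limma-voom, where 5 of 10 members and 45 of 418 tested miRNAs were lower at an unadjusted p under 0.05. With 10 reads required in every library edgeR gave 0, and 4 of 8 members and 39 of 341 miRNAs were lower at that p. With edgeR on total read scaling or with no filter it was 1, namely miR-20b-5p in place of miR-17-1-3p. Leaving out 1 library gave 0 to 1 members, and the 1 was miR-20b-5p without sham replicate 2. The adjusted p of miR-17-1-3p ranged from 0.00796 to 0.178 over the alternatives (edgeR, limma and DESeq2), and it was called in 3 of 15. The called cluster neighbours were 2 as reported, 4 with the likelihood ratio test and 0 to 4 with 1 library left out, 0 without IR replicate 1 or IR replicate 3 and 1 (miR-92a-3p) without sham replicate 3. Of all miRNAs tested 44 were called, 26 with 10 reads in every library, 75 with DESeq2 and 2 to 57 with 1 library left out. The lowest of these, 2, was found without IR replicate 3, followed by 17 without IR replicate 2, 21 without sham replicate 3 and 24 without IR replicate 1. No direction was reversed. With 1 library left out, the log2 ratio of miR-17-1-3p to miR-17-5p differed between groups by -0.69 to -0.10 and the summed log2 level by -0.69 to -0.36. The difference in the share of miR-20b-5p ran from -0.304 to -0.173 percentage points.

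With the replicate number as a block, edgeR called 0 members, 0 cluster neighbours and 0 of all 418 miRNAs, while 5, 4 and 84 had an unadjusted p under 0.05. Deviations of same-numbered libraries correlated at -0.25, -0.38 and -0.16, and those of differently numbered libraries at -0.12 to 0.32. With 3 libraries per group these values cannot settle whether the numbers pair the libraries, and the labels do not say. Several 3p strands rest on few reads, and 3 reads in the shallowest library stand for a TPM of 0.795.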
